A study of Homo sapiens with 12 samples.

Results

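The genes of the AMP-activated protein kinase (AMPK) and of the kinases that switch it on were followed through RNA sequencing of human clear cell renal cell carcinoma (ccRCC) cell lines and their sunitinib-resistant derivatives. The 9 genes were taken from the gene count table by symbol, out of 45478 genes in all: the catalytic subunits PRKAA1 and PRKAA2, the β subunits PRKAB1 and PRKAB2, the γ subunits PRKAG1, PRKAG2 and PRKAG3, and the upstream kinases STK11 and CAMKK2. Of these, 8 passed the filter on low counts and were tested. PRKAG3, the γ subunit known from skeletal muscle, had a count of 0 in 10 libraries and of 1 in 2 libraries, 1 of resistant 786-O and 1 of A498. A count of 0 allowed a level of up to 0.0613 to 0.144 CPM across libraries (3 counts, counting error only), where CPM is a count divided by its library's normalised size.

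AMPK is a heterotrimer of a catalytic α subunit, a scaffolding β subunit and a γ subunit that binds adenine nucleotides, and it responds to a fall in cellular energy. It is switched on when a threonine in the activation loop of the α subunit is phosphorylated, by LKB1 (the product of STK11), which acts in a complex with the pseudokinases STRADA or STRADB and the scaffolds CAB39 or CAB39L, or by CAMKK2, which responds to calcium. Active AMPK restrains fatty acid and sterol synthesis and mTORC1 signalling and promotes autophagy and mitochondrial biogenesis. RNA levels carry no measure of this phosphorylation or of kinase activity.

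The study sequenced 4 groups of 3 libraries: the parental lines 786-O and A498, both from ATCC, and a culture selected from each of them in sunitinib, an inhibitor of VEGF and other receptor tyrosine kinases, called resistant 786-O and resistant A498 here, while 786-O and A498 alone stand for the parents. Selection reached 4 µM for resistant 786-O and 2 µM for resistant A498, over 4 months or more than 20 passages. All groups were grown in DMEM with 25 mM glucose and serum, and the treatment of every library sequenced was given as none. Each resistant group is a single named culture, each group carried a batch label of its own, and the source of the replicates (separate cultures or not) was not stated, so group and batch cannot be told apart and p-values measure only the spread between these libraries, which may be technical.

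Total counts ranged from 20042519 to 47972092 per library, with a median of 37898338. The renal lineage factor PAX8 was at 200 CPM (resistant A498) to 312 CPM (786-O) on average, and 8 T cell markers summed to at most 0.656 CPM in any library. CA9, a hypoxia-inducible ccRCC marker, was at 1.29 CPM in A498 and had at most 2 counts in any library of the other groups. NDUFA4L2, another ccRCC marker, averaged 0.474 to 0.573 CPM across groups. PAX2 averaged 15.1 CPM in 786-O and 26.4 in resistant 786-O, and 15.0 in A498 and 24.5 in resistant A498, whereas PAX8 was lower in both resistant cultures. VIM averaged 3060 to 6810 CPM and KRT18 227 to 644 CPM across groups. The libraries labelled resistant A498 were less like their labelled parent than like the other line: across genes, their log2(CPM + 1) values had a median correlation of 0.918 with the A498 libraries, 0.967 with 786-O and 0.989 with resistant 786-O. Resistant 786-O replicate 2 stood apart from replicates 1 and 3: the median coefficient of variation of a gene was 7.81% in this group and 2.62% to 3.71% in the others, and without that library 73.6% of all genes were called in resistant 786-O against 786-O, in place of 68.5%. Because of the likeness to 786-O, the fold changes of the 8 tested genes in resistant A498 are given against A498 and also against 786-O. The 786-O libraries are shared with the resistant 786-O comparison. For other genes and for the lists, most resistant A498 values are against A498 alone. These are bulk cultures, in which fewer cells of a type and less RNA per cell cannot be told apart.

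The α subunits are shown first as sequence, because counts can be divided between paralogs only where their transcripts differ. The stretch that encodes the activation loop lies in exon 5 of both genes (GRCh38, GENCODE 44), at chr5:40769430-40769492 on the minus strand for PRKAA1 and at chr1:56693776-56693838 on the plus strand for PRKAA2, and the capitals mark the codon of the threonine that LKB1 and CAMKK2 phosphorylate.
PRKAA1: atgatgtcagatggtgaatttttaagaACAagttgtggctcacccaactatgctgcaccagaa
PRKAA2: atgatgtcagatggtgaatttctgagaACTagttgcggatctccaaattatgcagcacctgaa
The stretches differ at 10 of 63 bases and at 0 of the 21 residues they encode. Over the whole coding sequence the α genes were identical at 71.6% of 1632 aligned bases, the β genes at 70.0% of 804 and the γ genes PRKAG1 and PRKAG2 at 70.7% of 991. The longest identical run between the reference transcripts was 24 bases for PRKAA1 and PRKAA2, 20 bases for PRKAB1 and PRKAB2 and 12 bases for PRKAG1 and PRKAG2, all shorter than the 100-base reads. PRKAG1 is the member whose exons other genes cover most: in GENCODE 44 a same-strand gene model covers 49.5% of its exon bases and an antisense gene, DDN-AS1, 12.3%. The counts were made with GENCODE 33. Whether the same-strand model was part of that version was not checked, so its bearing on the PRKAG1 counts is unknown. DDN-AS1 was at 1.42 to 4.14 CPM across libraries and PRKAG1 at 36.2 to 71.5 CPM, and the strand setting behind the counts is uncertain.

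In resistant 786-O against 786-O, 2 of the 8 tested genes rose (PRKAA2 and PRKAB2) and 4 fell (PRKAA1, PRKAB1, PRKAG1 and CAMKK2). With library size alone 3 rose and 3 fell. Across all 19929 genes tested, 68.5% were called in this comparison, 35.0% higher and 33.5% lower, at an adjusted p under 0.05 (edgeR quasi-likelihood test, Benjamini-Hochberg over all genes), so 6 of 8 is close to the background. In resistant A498 against A498, 6 of the 8 rose and only PRKAG2 and CAMKK2 fell, against 72.7% of all genes called, 36.3% higher and 36.4% lower. In resistant A498 against 786-O, 2 were higher (PRKAA2 and PRKAB2) and 4 lower (PRKAB1, PRKAG1, PRKAG2 and CAMKK2), where 63.6% of all genes were called, 31.6% higher and 32.1% lower. That split was 3 and 3 with library size alone and 1 and 5 with the GC and length trend removed. The libraries of the compared groups did not overlap for 6, 8 and 8 of the 8 genes in these comparisons, where 68.9%, 78.5% and 73.4% of all genes did not overlap. The median log2 fold change of the 8 genes was -0.17, 0.40 and -0.15 in these comparisons, beside 0.03 and values within 0.01 of 0 for all genes. In this edgeR fit none of the 8 changed by more than 2-fold between a resistant culture and its labelled parent. With the GC and length trend removed PRKAA2 was at 1.11 on the log2 scale in resistant 786-O.

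**Figure D1:**
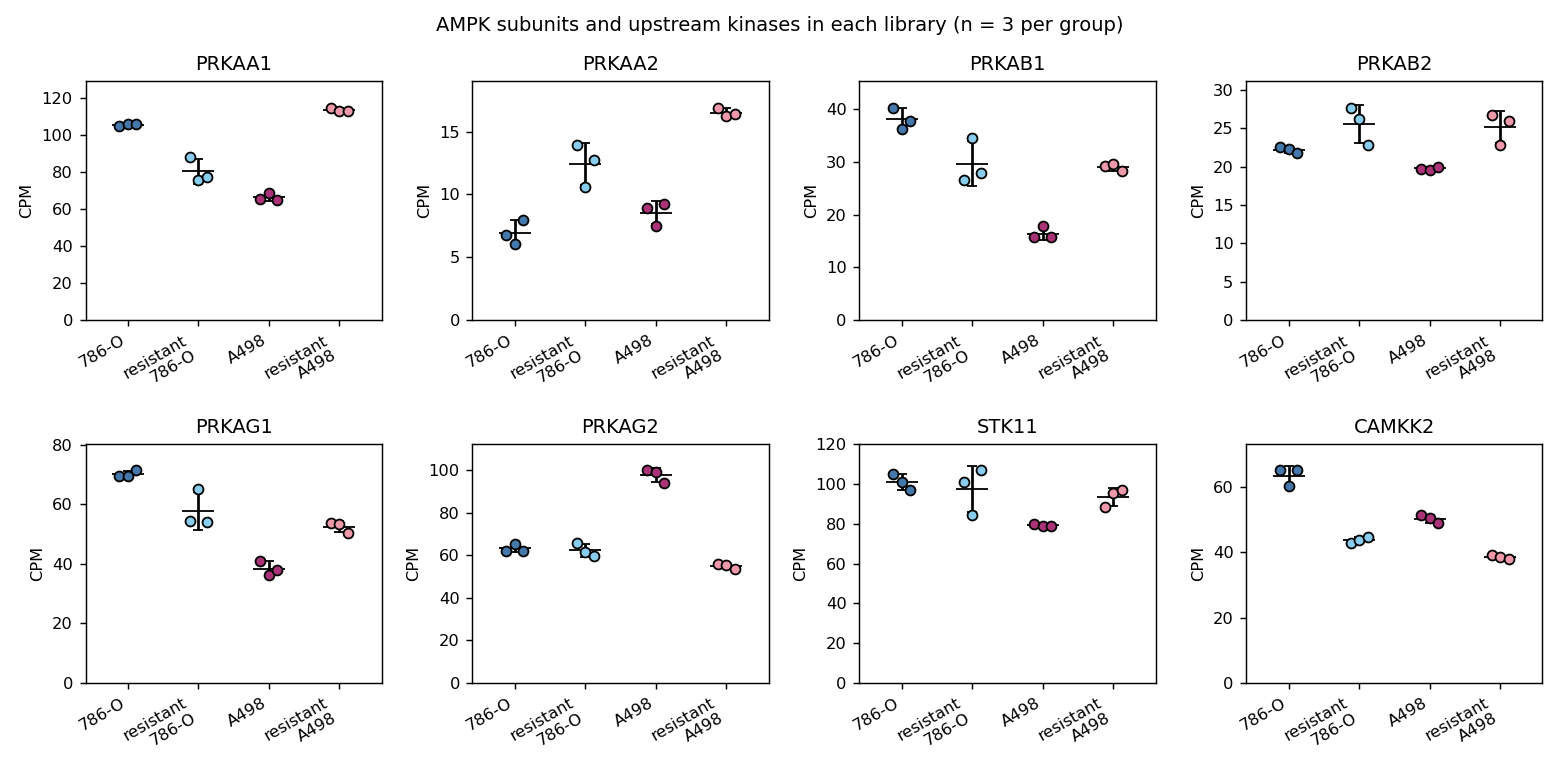
Level of each tested gene in CPM (y axis) in the 3 libraries of each parental and resistant group (points, with the mean and SD). PRKAA2 is higher in both resistant cultures than in both parental lines, CAMKK2 is lower in both, and PRKAA1, PRKAB1 and PRKAG1 are lower in resistant 786-O than in 786-O but higher in resistant A498 than in A498.

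PRKAA1, which encodes the α1 catalytic subunit (chr5:40759389-40798374), was the predominant α transcript in every library. Its level was 105, 106 and 106 CPM in 786-O and 88.3, 75.6 and 77.6 CPM in resistant 786-O, groups that did not overlap. It was 65.7, 69.0 and 65.2 CPM in A498 and 115, 113 and 113 CPM in resistant A498. The change was thus opposite in sign: PRKAA1 fell by 0.39 on the log2 scale in resistant 786-O (SE 0.05, edgeR adjusted p = 1.4e-05) and rose by 0.77 in resistant A498 against A498 (SE 0.06, edgeR adjusted p = 7.3e-09). Against 786-O, resistant A498 differed by 0.11 (95% interval 0.00 to 0.21, edgeR adjusted p = 0.1), which did not pass the test, though it was called with library size alone (0.26, edgeR adjusted p = 0.0011) and by DESeq2 (0.14, adjusted p = 0.039). With each library's trend in GC content and gene length removed, the change in resistant 786-O was -0.09 and no longer called (edgeR adjusted p = 0.062).

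PRKAA2, which encodes the α2 subunit (chr1:56645314-56715335), had the largest rise of the 8 genes in both resistant cultures against their labelled parents in the main edgeR fit. Its level was 6.81, 6.03 and 7.99 CPM in 786-O and 13.9, 10.6 and 12.7 CPM in resistant 786-O. In A498 it was 8.92, 7.48 and 9.27 CPM, and in resistant A498 16.9, 16.2 and 16.4 CPM. All 6 resistant libraries lay above all 6 parental libraries, while the ranges of the parental lines overlapped. How many of all genes share this pattern was not counted, so it is not shown to be particular to PRKAA2. PRKAA2 rose 1.78-fold in resistant 786-O (log2 fold change 0.83, SE 0.12, edgeR adjusted p = 1.5e-05) and 1.92-fold in resistant A498 against A498 (0.94, SE 0.12, edgeR adjusted p = 4.9e-06). Against 786-O the resistant A498 value was 2.37-fold higher (1.24, SE 0.12, edgeR adjusted p = 3.1e-07). The size of the change was at the 70.7th percentile of all genes in resistant 786-O and the 65.9th in resistant A498, by absolute log2 fold change. The test of the difference between the rises did not call PRKAA2. It called 5 of the 8 genes (PRKAA1, PRKAB1, PRKAG1, PRKAG2 and STK11), beside 68.3% of all genes. With the GC and length trend removed PRKAA2 stood at 1.11 in resistant 786-O and 0.66 in resistant A498. The difference turned to -0.45 (edgeR adjusted p = 0.018), and all 8 genes were called in that test, beside 67.6% of all genes. In resistant A498 against A498 the fitted trend was 0.28 for PRKAA2 and -0.01 for PRKAB1, which rose by 0.83 on the log2 scale in the main fit.

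Levels per kilobase used all annotated exons of a gene, merged. Which of these exons the cells use was not tested, so the share of a paralog depends on the annotation. PRKAA1 stood at 16.1, 12.3, 10.2 and 17.3 CPM per kb in 786-O, its resistant culture, A498 and its resistant culture. PRKAA2 stood at 0.742, 1.32, 0.915 and 1.76 in the same order. PRKAA2 therefore made up 4.41% ± 0.587 of the summed α signal in 786-O and 9.72% ± 0.716 in resistant 786-O (SD, n = 3). In A498 the share was 8.28% ± 1.06 and in resistant A498 9.23% ± 0.095. The α2 share was lowest in 786-O and close in the other 3 groups. The log2 ratio of PRKAA2 to PRKAA1 counts, which needs no scaling between libraries, was higher by 1.23 in resistant 786-O than in 786-O, by 0.18 in resistant A498 than in A498, and by 1.15 in resistant A498 than in 786-O. In resistant 786-O PRKAA2 rose and PRKAA1 fell, whereas in resistant A498 both rose. The libraries of the groups did not overlap in any of these shifts, as in 17 of all 20 ratio tests. The ratio tests share libraries, and the share without overlap was not counted for other gene pairs, so the count of 17 has no background. The gap was narrow for resistant A498 against A498, with log2 ratios of -2.77, -2.80 and -2.78 against -2.88, -3.20 and -2.81. Each shift had p = 0.1 in an exact two-sided permutation test, the smallest p that 3 against 3 libraries allow. The adjusted p was 0.118 over 20 ratio tests, so none could reach 0.05. Exons of PRKAA1 and PRKAA2 are alike in GC content (36.5% and 35.2%), and with a trend in GC content and gene length removed the shifts were 1.21, 0.19 and 1.10.

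**Figure D2:**
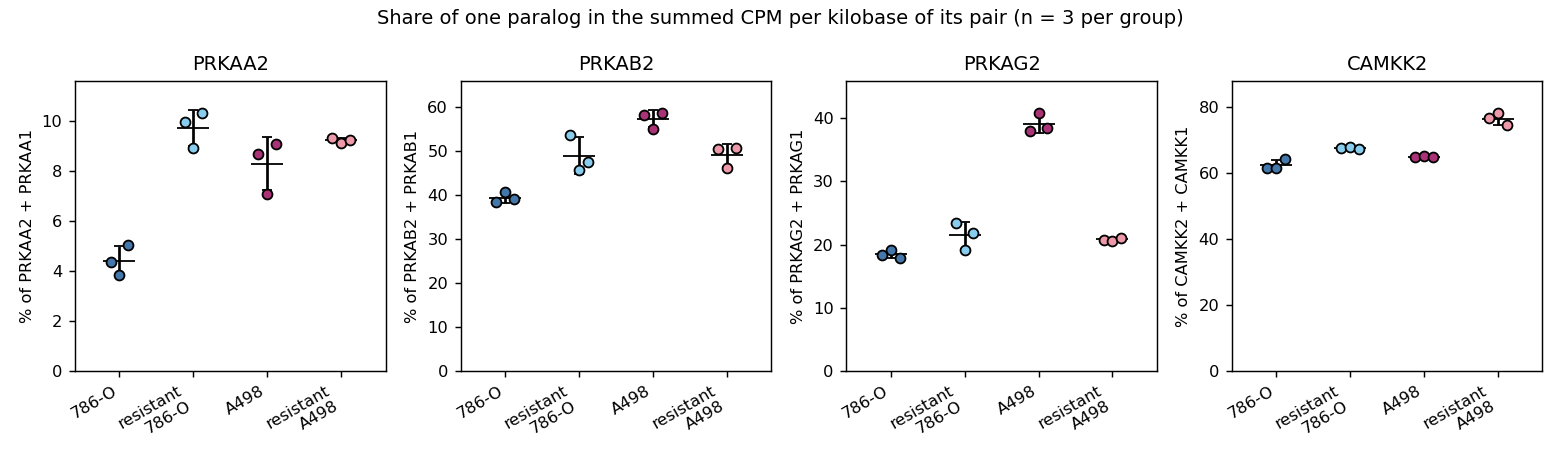
Share of PRKAA2, PRKAB2, PRKAG2 and CAMKK2 in the summed CPM per kilobase of each paralog pair (y axis, percent) in the 3 libraries of each group, with the mean and SD. PRKAA2 goes from 4.41% in 786-O to 9.72% in resistant 786-O, PRKAG2 from 39.1% in A498 to 20.8% in resistant A498, and the resistant A498 shares of the α, β and γ pairs lie close to those of resistant 786-O.

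PRKAB1, which encodes the β1 subunit (chr12:119667864-119681624), was at 40.3, 36.2 and 37.7 CPM in 786-O and at 26.6, 34.6 and 27.9 CPM in resistant 786-O. It was at 15.7, 17.8 and 15.7 CPM in A498 and at 29.2, 29.6 and 28.2 CPM in resistant A498. PRKAB1 fell by 0.36 on the log2 scale in resistant 786-O (SE 0.08, edgeR adjusted p = 0.0016) and rose by 0.83 in resistant A498 against A498 (SE 0.09, edgeR adjusted p = 1.2e-06). Resistant 786-O replicate 2 was the highest of its group, and without it the change was -0.48 (edgeR adjusted p = 1.6e-09). The resistant cultures overlapped each other (29.7 and 29.0 CPM on average, edgeR adjusted p = 0.78), and against 786-O the resistant A498 libraries were lower by a log2 fold change of -0.39 (SE 0.09, edgeR adjusted p = 0.0012). The parental lines were the farthest apart here of all members, with A498 at a log2 fold change of -1.22 from 786-O (SE 0.09, edgeR adjusted p = 8.7e-09). Between the parental lines 7 of the 8 genes were called, 2 higher and 5 lower in A498, beside 74.2% of all genes, 36.1% higher and 38.2% lower.

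PRKAB2, which encodes the β2 subunit (chr1:147155106-147172550), was at 22.6, 22.3 and 21.8 CPM in 786-O and at 27.7, 26.2 and 22.8 CPM in resistant 786-O. It was at 19.7, 19.6 and 20.0 CPM in A498 and at 26.8, 22.8 and 26.0 CPM in resistant A498. The groups did not overlap, but the lowest resistant 786-O library, at 22.8 CPM, lay just above the highest 786-O library, at 22.6 CPM. PRKAB2 rose by 0.20 in resistant 786-O (SE 0.07, edgeR adjusted p = 0.026), a call that was lost (edgeR adjusted p = 0.053 to 0.084) when any 786-O library or resistant 786-O replicate 1 was left out. It rose by 0.35 in resistant A498 against A498 (SE 0.08, edgeR adjusted p = 0.00095) and was higher by 0.18 against 786-O (SE 0.08, edgeR adjusted p = 0.048), which was lost without any 786-O library or without resistant A498 replicate 1 or 3 (edgeR adjusted p = 0.085 to 0.13). With the trend in GC content and length removed, resistant A498 was at 0.10 against A498 and 0.14 against 786-O, neither called (edgeR adjusted p = 0.22 and 0.091).

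Within the β pair, PRKAB2 made up 39.3% ± 1.17 of the summed CPM per kb in 786-O, 48.9% ± 4.18 in resistant 786-O, 57.2% ± 1.94 in A498 and 49.0% ± 2.57 in resistant A498 (SD, n = 3). The log2 ratio of PRKAB2 to PRKAB1 was higher by 0.56 in resistant 786-O than in 786-O and at -0.48 in resistant A498 relative to A498. The parental lines thus lay on either side of the resistant cultures, whose β ratios differed by 0.01 and overlapped (exact permutation p = 1). Both shifts from a labelled parent had p = 0.1 in the exact permutation test.

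PRKAA2 and PRKAB2, the members that rose in both resistant cultures, are shown with the 250 bases before their annotated start (RefSeq, GRCh38.p14), with the motifs searched for in capitals. The windows are chr1:56645064-56645313 on the plus strand for PRKAA2 and chr1:147172471-147172720 on the minus strand for PRKAB2.
PRKAA2: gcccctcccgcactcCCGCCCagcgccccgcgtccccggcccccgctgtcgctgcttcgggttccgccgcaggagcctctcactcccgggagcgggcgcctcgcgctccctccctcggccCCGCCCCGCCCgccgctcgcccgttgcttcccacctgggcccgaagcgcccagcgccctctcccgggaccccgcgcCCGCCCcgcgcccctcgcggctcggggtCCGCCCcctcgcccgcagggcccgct
PRKAB2: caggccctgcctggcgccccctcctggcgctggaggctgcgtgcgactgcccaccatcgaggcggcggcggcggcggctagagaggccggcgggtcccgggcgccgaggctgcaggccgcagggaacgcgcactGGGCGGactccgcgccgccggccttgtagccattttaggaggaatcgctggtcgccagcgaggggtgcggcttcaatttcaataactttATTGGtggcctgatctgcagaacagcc
The search covered the GC box GGGCGG, the CCAAT box CCAAT, the E-box CACGTG and the cAMP response element TGACGTCA on both strands, with overlapping matches counted. PRKAA2 held 5 GC boxes and PRKAB2 held 1 GC box and 1 CCAAT box, and neither window held an E-box or a cAMP response element. Of 35116 promoter windows of this length, 42.6% held a GC box, 32.0% a CCAAT box, 6.34% an E-box and 1.65% a cAMP response element. PRKAA1 held 8 GC boxes and PRKAB1 none of the motifs. All 9 members matched a promoter entry, and GC content was 83.2% in the PRKAA2 window and 69.6% in that of PRKAB2. A match is a description of the letters, not of a bound site.

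PRKAG1, which encodes the γ1 subunit (chr12:49002274-49018807), was at 69.7, 69.5 and 71.5 CPM in 786-O and at 54.3, 65.1 and 54.1 CPM in resistant 786-O. It was at 41.1, 36.2 and 37.8 CPM in A498 and at 53.7, 53.5 and 50.4 CPM in resistant A498. Both resistant cultures lay between the parental lines. PRKAG1 fell by 0.28 in resistant 786-O on the log2 scale (SE 0.07, edgeR adjusted p = 0.0021), rose by 0.45 in resistant A498 against A498 (SE 0.07, edgeR adjusted p = 5e-05) and was at -0.42 in resistant A498 against 786-O (SE 0.07, edgeR adjusted p = 9.3e-05). Resistant 786-O replicate 2 was again the highest of its group, and without it the change was -0.38 (edgeR adjusted p = 7.1e-09). Scaling by library size alone left the resistant 786-O change at -0.14 (edgeR adjusted p = 0.075).

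PRKAG2, which encodes the γ2 subunit (chr7:151556124-151877214), set A498 apart. Its level was 100, 99.4 and 94.2 CPM in A498, against 56.1, 55.3 and 53.7 CPM in resistant A498. In 786-O it was 62.2, 65.4 and 62.1 CPM and in resistant 786-O 65.9, 61.5 and 59.9 CPM, which overlapped. PRKAG2 fell by 0.83 in resistant A498 on the log2 scale (SE 0.05, edgeR adjusted p = 1e-09), and was at -0.20 in resistant A498 against 786-O (SE 0.05, edgeR adjusted p = 0.0028), the latter not called with library size alone (-0.05, edgeR adjusted p = 0.41). The 786-O lines differed by -0.02 (95% interval -0.12 to 0.08, edgeR adjusted p = 0.74), and became -0.26 with the trend in GC content and length removed (edgeR adjusted p = 0.00049) and 0.12 with library size alone (edgeR adjusted p = 0.041), so its sign was not settled.

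Within the γ pair, PRKAG2 made up 39.1% ± 1.49 of the summed CPM per kb in A498 and 20.8% ± 0.252 in resistant A498. It made up 18.4% ± 0.611 in 786-O and 21.5% ± 2.12 in resistant 786-O (SD, n = 3). The merged annotated exons came to 16580 bases for PRKAG2 and 4166 for PRKAG1, so the level of this share rests on the annotation. The log2 ratio of PRKAG2 to PRKAG1 was at -1.29 in resistant A498 relative to A498, the widest shift of any pair between a resistant culture and its labelled parent, and at 0.27 in resistant 786-O relative to 786-O. Relative to 786-O the resistant A498 ratio was at 0.22, and at -0.03 with the trend in GC content and length removed. These γ shifts, too, could not go below p = 0.1 in the exact permutation test.

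STK11, which encodes LKB1 (chr19:1177558-1228431), was detected in every library, with 1704 to 4922 counts. Its level was 105, 101 and 97.0 CPM in 786-O and 101, 84.7 and 107 CPM in resistant 786-O, which overlapped. It was 80.1, 79.2 and 79.1 CPM in A498 and 88.5, 95.4 and 96.9 CPM in resistant A498, which did not. The value in resistant 786-O was -0.05 (95% interval -0.19 to 0.08, edgeR adjusted p = 0.53). STK11 rose by 0.24 in resistant A498 against A498 (SE 0.07, edgeR adjusted p = 0.0078), and against 786-O the resistant A498 value was -0.11 (95% interval -0.24 to 0.03, edgeR adjusted p = 0.2). Exons of STK11 have the highest GC content of the members, 65.9%, and libraries differed in how counts followed GC content: the trend fitted over all genes predicted a log2 difference of 0.71 for STK11 in resistant 786-O against 786-O and of -0.29 in resistant A498 against A498. With that trend removed STK11 was at -0.76 in resistant 786-O (SE 0.04, edgeR adjusted p = 8.2e-10), 0.52 in resistant A498 against A498 and -0.52 against 786-O. Whether the trend is technical was not tested.

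**Figure D3:**
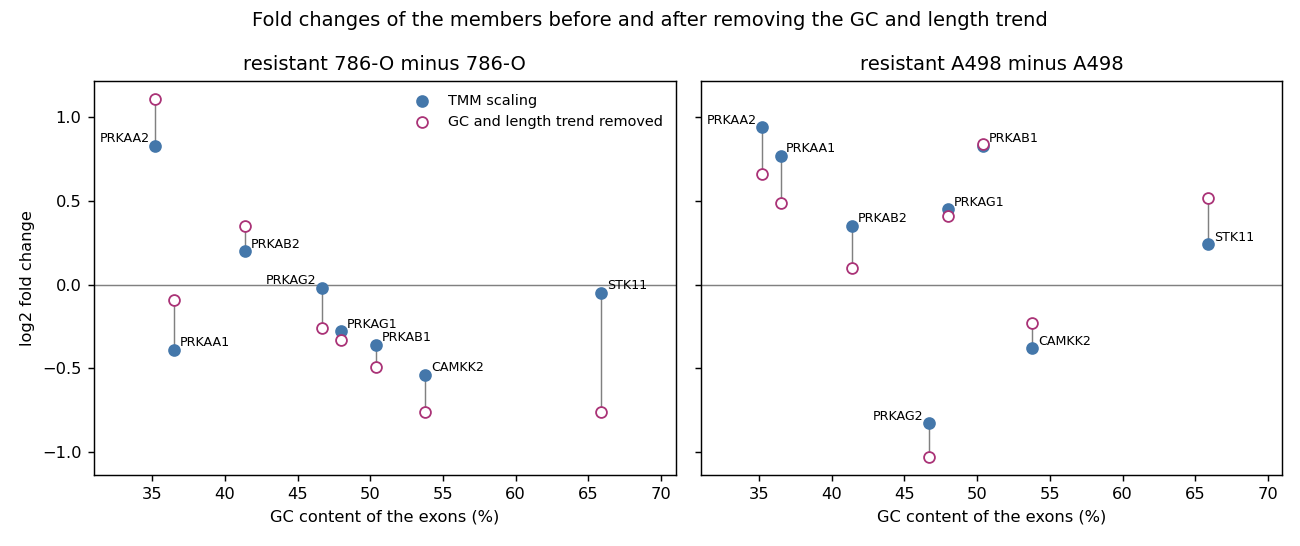
Log2 fold change of each tested gene (y axis) against the GC content of its exons in percent (x axis), in resistant 786-O against 786-O and in resistant A498 against A498, with TMM scaling (filled) and with each library's trend in GC content and length removed (open, joined by a line). STK11 moves the farthest, from -0.05 to -0.76 in resistant 786-O, while PRKAA2 stays above 0 and CAMKK2 below 0 in both panels.

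The partners of LKB1 moved unevenly. CAB39, the scaffold MO25α that stabilises active LKB1, averaged 117 CPM in 786-O and 69.4 in its resistant culture, and 74.1 CPM in A498 and 102 in its resistant culture. It fell by 0.75 in resistant 786-O (SE 0.04, edgeR adjusted p = 7.4e-10), rose by 0.45 in resistant A498 against A498 (SE 0.04, edgeR adjusted p = 1.3e-07) and was at -0.20 in resistant A498 against 786-O (SE 0.04, edgeR adjusted p = 0.00068). Its paralog CAB39L (MO25β) averaged 9.07, 11.2, 5.10 and 10.0 CPM in the same order and rose in both, by 0.31 (SE 0.09, edgeR adjusted p = 0.0069) and 0.97 (SE 0.10, edgeR adjusted p = 6.3e-07). STRADB fell by 0.41 in resistant 786-O (SE 0.07, edgeR adjusted p = 8.9e-05) and was at 0.14 in resistant A498 against A498 (edgeR adjusted p = 0.099). STRADA was at or below 2.97 CPM in every library and was called in neither comparison with a labelled parent (edgeR adjusted p = 1 and 0.069). In all, 3 of the 4 partners were called in resistant 786-O and 2 of 4 in resistant A498 against A498, where 68.5% and 72.7% of all genes were called. With the GC and length trend removed STRADB was at -0.17 in resistant 786-O and no longer called (edgeR adjusted p = 0.058), and STRADA was called in resistant A498 (-0.50, edgeR adjusted p = 0.013). With library size alone STRADB was called in resistant A498 (0.21, edgeR adjusted p = 0.022). Against 786-O, in the main fit, resistant A498 was at -0.60 for STRADA (edgeR adjusted p = 0.0036). It was at 0.05 for STRADB and 0.15 for CAB39L there, neither called (edgeR adjusted p = 0.57 and 0.19).

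CAMKK2, the calcium-dependent AMPK kinase (chr12:121237675-121298308), was lower in both resistant cultures. Its level was 65.2, 60.4 and 65.2 CPM in 786-O and 42.8, 43.7 and 44.8 CPM in resistant 786-O. In A498 it was 51.5, 50.6 and 49.0 CPM, and in resistant A498 39.3, 38.5 and 38.1 CPM. All 6 resistant libraries lay below all 6 parental libraries, a pattern whose share over all genes was likewise not counted. CAMKK2 fell by 0.54 on the log2 scale in resistant 786-O (SE 0.05, edgeR adjusted p = 1.1e-07) and by 0.38 in resistant A498 (SE 0.05, edgeR adjusted p = 5e-06), and it was at -0.72 in resistant A498 against 786-O (SE 0.05, edgeR adjusted p = 7.3e-09). With the trend in GC content and length removed the resistant 786-O and resistant A498 values were -0.76 and -0.23, both still called.

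The paralog CAMKK1, which also phosphorylates calmodulin-dependent kinases, fell further. It averaged 39.6 CPM in 786-O and 21.6 in its resistant culture, and 28.2 CPM in A498 and 12.3 in its resistant culture, with log2 fold changes of -0.87 in resistant 786-O (SE 0.07, edgeR adjusted p = 1.9e-08) and -1.19 in resistant A498 against A498 (SE 0.07, edgeR adjusted p = 1.1e-09). CAMKK2 made up 62.5% ± 1.56 of the summed CPM per kb of the pair in 786-O, 67.7% ± 0.361 in resistant 786-O, 64.9% ± 0.231 in A498 and 76.5% ± 1.87 in resistant A498 (SD, n = 3). The log2 ratio of CAMKK2 to CAMKK1 was higher by 0.33 in resistant 786-O, by 0.81 in resistant A498 than in A498 and by 0.97 than in 786-O, each with an exact permutation p of 0.1. MAP3K7 (TAK1), another kinase described to act on AMPK, was at -0.20 in resistant 786-O (edgeR adjusted p = 0.011) and 0.46 in resistant A498 against A498 (edgeR adjusted p = 1.5e-05), and was named here after its values were seen. The list of CAMKK1 and MAP3K7 thus had 2 of 2 genes called in both comparisons, where 68.5% and 72.7% of all genes were called. MAP3K7 lost its call in resistant 786-O with library size alone (-0.05, edgeR adjusted p = 0.47) and with the GC and length trend removed (edgeR adjusted p = 0.95). In resistant A498 against 786-O, MAP3K7 was at -0.04 (edgeR adjusted p = 0.59) and CAMKK1 at -1.68 (edgeR adjusted p = 4.8e-11).

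**Figure D4:**
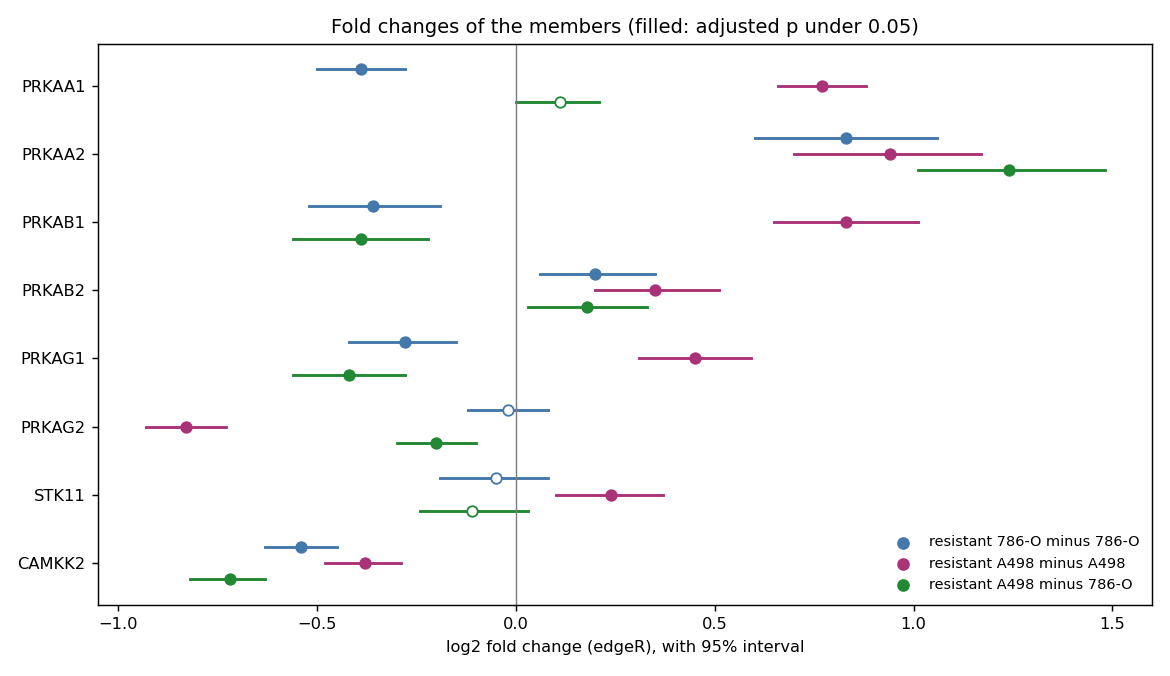
Log2 fold change of each tested gene with its 95% interval (x axis) in resistant 786-O against 786-O, resistant A498 against A498 and resistant A498 against 786-O. Filled points passed an adjusted p of 0.05: PRKAA2 and PRKAB2 lie above 0 and CAMKK2 below 0 in all comparisons, and PRKAB1 and PRKAG1 lie below 0 in both comparisons with 786-O and above 0 against A498.

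Taking the groups in order of mean CPM gave 24 pairs of neighbours over the 8 genes, of which 16 differed (edgeR, adjusted over all genes) and 8 did not pass the test. The share of such sorted neighbours that differ was not computed for all genes, so the count of 16 has no background. For fixed pairs of groups not yet described, 46.1% of all genes were called between the resistant cultures and 74.2% between A498 and resistant 786-O. PRKAA1 ran from resistant A498 over 786-O and resistant 786-O to A498, with the resistant A498 and 786-O levels not separated. PRKAA2 ran from resistant A498 over resistant 786-O and A498 to 786-O with all neighbours called, but the step between A498 and 786-O was lost without replicate 1 or 2 of 786-O or replicate 1 or 3 of A498 (edgeR adjusted p = 0.095 to 0.18). PRKAB1 and PRKAG1 ran from 786-O over resistant 786-O and resistant A498 to A498, with the resistant cultures not separated, and CAMKK2 ran from 786-O over A498 and resistant 786-O to resistant A498 with all neighbours called. PRKAB2 ran from resistant 786-O over resistant A498 and 786-O to A498, with only the middle step called. PRKAG2 ran from A498 over 786-O and resistant 786-O to resistant A498, with the middle step not called. STK11 ran as PRKAB1 did, with only the last step called. With library size alone the order changed for PRKAG2 and STK11 and stayed for the other tested genes. Levels in resistant A498 were closer to 786-O than to A498 for 6 of the 8 genes, the exceptions being PRKAA2 and CAMKK2. The share of all genes closer to 786-O was not counted, so this is not shown to be particular to the members. Over all genes, the median absolute log2 fold change of resistant A498 was 0.4658 against 786-O and 0.6098 against A498.

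Across the 12 libraries, the genes whose log2 CPM was most like that of a member were sought among 9710 genes. PRKAA2 was most like TAX1BP1 and KLHL24 (Pearson r = 0.97 for both), and KLHL24 averaged 2.94, 13.7, 7.19 and 31.5 CPM in 786-O, its resistant culture, A498 and its resistant culture. CAMKK2 was most like FIS1 and BID (0.99), PRKAG2 like TRPA1 and SFN (0.99), and PRKAA1 like SACM1L and SKA1 (0.99). PRKAB1 was most like CD163L1 and E2F7 (0.99), PRKAG1 like C1orf109 and BANF1 (0.99) and STK11 like MICAL3 and NXF1 (0.96), whereas the best match of PRKAB2 was lower, at 0.92 for ZNF558 and 0.90 for NHLRC3. The 12 points share 4 groups, so these values describe the pattern of group levels, and 252 genes exceeded r = 0.95 with PRKAG2 alone.

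The wider pathway was followed through fixed lists. In all of these lists the counts stand beside 68.5% of all genes called in resistant 786-O (35.0% higher, 33.5% lower) and 72.7% in resistant A498 against A498 (36.3% higher, 36.4% lower). Of 21 AMPK substrates, 11 rose and 5 fell in resistant 786-O, a split of 14 and 3 with library size alone and of 7 and 7 with the GC and length trend removed. In resistant A498 against A498, 9 rose and 9 fell. Both shares are near those of all genes, and the median change of the list was 0.18 and 0.01 on the log2 scale. PPARGC1A, the coactivator of mitochondrial biogenesis, averaged 1.10 CPM in 786-O and 7.41 in its resistant culture, and 0.732 CPM in A498 and 15.0 in its resistant culture, and rose by 2.73 (SE 0.14, edgeR adjusted p = 2.9e-10) and 4.31 (SE 0.16, edgeR adjusted p = 2.5e-12). PFKFB2, which makes the activator of phosphofructokinase, rose by 1.16 and 0.39 (edgeR adjusted p = 1e-10 and 8.5e-06). ULK1, the kinase that initiates autophagy, moved in opposite directions. It averaged 25.8 CPM in 786-O and 46.8 in its resistant culture, and 97.3 CPM in A498 and 45.4 in its resistant culture. This was a rise of 0.86 and then a log2 fold change of -1.10 (edgeR adjusted p = 9.1e-06 and 4.6e-07). Against 786-O, ULK1 was higher by 0.82 in resistant A498 (edgeR adjusted p = 2.1e-05). The hormone-sensitive lipase LIPE rose from 0.610 to 2.80 CPM in resistant A498 (log2 fold change 2.15, SE 0.26, edgeR adjusted p = 2e-06), a level like the 2.49 CPM of 786-O.

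The AMPK-related kinases, which LKB1 also phosphorylates, had 7 of 12 genes higher and 2 lower in resistant 786-O, and 5 higher and 4 lower in resistant A498 against A498, with median log2 fold changes of 0.33 and within 0.01 of 0. The 9 of 12 called in each are near the shares of all genes, 68.5% and 72.7%, and the split in resistant 786-O was 10 higher and 1 lower with library size alone and 6 and 3 with the GC and length trend removed. BRSK1 and BRSK2 averaged 5.47 and 20.0 CPM in A498 and 0.327 and 2.97 CPM in resistant A498 (log2 fold changes -4.04 and -2.74, edgeR adjusted p = 6.5e-10 and 4.2e-12), while their levels in 786-O were 0.149 and 0.544 CPM. BRSK2 rose by 1.87 in resistant 786-O to 1.99 CPM (SE 0.15, edgeR adjusted p = 3.8e-08). SIK1 averaged 35.8 CPM in A498, 0.195 in resistant A498 and 0.144 in 786-O, and is uncertain because a near-identical gene copy can take its reads. NUAK2 rose by 1.09 in resistant 786-O (SE 0.12, edgeR adjusted p = 1.2e-06) and SIK3 by 1.07 in resistant A498 against A498 (SE 0.09, edgeR adjusted p = 5.9e-08).

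Among 8 lysosomal and stress regulators of AMPK, 6 rose and 1 fell in resistant 786-O (median 0.40), and 3 rose and 4 fell in resistant A498 against A498 (median -0.25). The shares of all genes called were 68.5% (35.0% higher) and 72.7% (36.3% higher). With the trend in GC content and length removed, 3 were called in resistant 786-O, all higher, and with library size alone 7, all higher. SESN3, a sestrin, averaged 6.95 CPM in A498, 2.45 in resistant A498 and at most 0.324 CPM in either of the other groups, with a log2 fold change of -1.51 in resistant A498 (SE 0.16, edgeR adjusted p = 4.8e-07). Of 5 tested phosphatase and ubiquitin pathway genes that act on AMPK, 1 rose and 4 fell in resistant 786-O (median -0.53). In resistant A498 against A498, 0 rose and 3 fell (median -0.48). Of all genes, 33.5% and 36.4% were called lower. The rise was PPM1E, at 0.271 CPM in 786-O and 0.733 in resistant 786-O. MAGEA3, 1 of the falls, was also low there, at 0.561 and 0.123 CPM. It had 0 counts in A498 and at most 1 in any resistant A498 library. TRIM28, a ubiquitin ligase partner, averaged 497 CPM in 786-O and 320.0 in resistant 786-O, and 890.0 in A498 and 323 in resistant A498, with log2 fold changes of -0.64 and -1.46 (edgeR adjusted p = 2.2e-08 and 9.8e-13). The phosphatase PPM1F fell by 0.53 and 1.09 in the same comparisons (edgeR adjusted p = 2.4e-07 and 6.1e-11).

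Enzymes that make or remove AMP were followed as well. Of 7 tested adenylate kinases and AMP deaminases, 1 rose and 4 fell in resistant 786-O (median -0.43), and 3 rose and 4 fell in resistant A498 against A498 (median -0.33), beside 68.5% and 72.7% of all genes called. With library size alone the split in resistant 786-O was 3 higher and 4 lower, and with the GC and length trend removed 2 and 4. AMPD2, an AMP deaminase, fell in both, from 254 to 114 CPM (log2 fold change -1.16, SE 0.04, edgeR adjusted p = 4.7e-12) and from 187 to 119 CPM (-0.64, SE 0.04, edgeR adjusted p = 1.6e-09). AK5 fell by 1.20 and 1.46 (SE 0.17 and 0.19, edgeR adjusted p = 1.5e-05 and 5.7e-06). The mitochondrial adenylate kinase AK4 averaged 12.8 CPM in A498 and 107 in resistant A498 (3.06, SE 0.06, edgeR adjusted p = 4.6e-15), near the 122 CPM of 786-O, and fell by 0.43 in resistant 786-O (SE 0.05, edgeR adjusted p = 4.8e-06). AK3 rose by 1.12 in resistant A498 against A498 (SE 0.09, edgeR adjusted p = 3.5e-08).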

How the data were processed

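RNA of 4 groups of 3 libraries was sequenced in paired 100-base reads from a stranded mRNA kit. Per the study's methods and the submitters' processing notes, the authors trimmed reads with Trimmomatic 0.36.6, aligned them to GRCh38 with HISAT2 2.1.0 and counted them per gene with featureCounts 1.6.3, and they deposited raw counts, with no normalization. The strand setting named in the methods is the forward one, while TruSeq Stranded mRNA libraries are read in the reverse orientation. VIM stood at 2970 to 7060 CPM and its antisense gene VIM-AS1 at 869 to 1840 CPM across libraries, so which setting made the counts could not be settled, and reads of a gene and its antisense partner are not taken as separate here.

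Here the 45478 genes were filtered by expression (filterByExpr), scaled by TMM and fitted in edgeR 4.0.16 (R 4.3.3, limma 3.58.1) with the quasi-likelihood test, all 12 libraries in one fit, over 19929 genes, with Benjamini-Hochberg adjustment and a threshold of 0.05. Fold changes used a prior count of 0.125 and paralog ratios a pseudocount of 0.5 counts, and ratios were tested by exact permutation with scipy 1.17.1. Exon length (all annotated exons of a gene merged), GC content and coordinates came from GENCODE 44. On simulated counts 187 of 200 genes changed 2-fold were recovered in the resistant 786-O comparison among 19184 genes, with 5 unchanged genes called. The simulated counts held no GC trend and no changes of other sizes. They therefore give no recovery rate for changes below 2-fold, such as those of the members.

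The members, lists and tests were chosen with earlier results of these data known. Genes outside the members were named by rule: CAMKK1, all LKB1 partners, up to 4 genes per list and comparison with an adjusted p under 0.05, at least 1 CPM, no overlap and an absolute log2 fold change of at least 1, and the 2 genes most correlated with each member. MAP3K7 was added outside this rule after its values were seen. Alternatives were library size, DESeq2 1.42.0, other filters and prior counts, each cell line alone, a replicate block, removal of the GC and length trend, thinning, the study's unadjusted test and leaving out each library. Same-numbered libraries did not deviate together (correlations of -0.162 to 0.0427), so the numbers were not treated as pairs.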

Additional observations from a re-analysis of the deposited data

Results flagged for a closer look

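The change in resistant A498 against A498 differed from the change in resistant 786-O against 786-O for 5 of the 8 tested genes, by the test of the difference itself in the edgeR fit. The share of all genes called in that test was 68.3%. The difference of the log2 fold changes was 1.16 for PRKAA1, 1.19 for PRKAB1, 0.73 for PRKAG1, -0.81 for PRKAG2 and 0.29 for STK11. PRKAA1, PRKAB1 and PRKAG1 moved in opposite directions in the lines, and their resistant A498 levels lay nearer to 786-O than to A498. The PRKAA1 fall in resistant 786-O was not called with the GC and length trend removed (-0.09, edgeR adjusted p = 0.062). That of PRKAG1 was not called with library size alone (-0.14, edgeR adjusted p = 0.075). With 786-O as the reference of both resistant cultures, 0 members were called in opposite directions. The STK11 difference was no longer called with library size alone (0.21, edgeR adjusted p = 0.079) or with at least 10 counts required in every library (0.20, edgeR adjusted p = 0.084). CAMKK2, not called in that test, was called without 786-O replicate 2, without resistant 786-O replicate 2 or 3, or without A498 replicate 1 (0.16 to 0.20, edgeR adjusted p = 0.023 to 0.048), and with the GC and length trend removed (0.53, edgeR adjusted p = 3.9e-06). With that trend removed all 8 genes were called, PRKAA2 at -0.45 (edgeR adjusted p = 0.018) and PRKAB2 at -0.25 (edgeR adjusted p = 0.033). Of all genes, 67.6% were called in the test of the difference under that setting.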

How the results depend on the processing

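Leaving out 1 library at a time gave 5 to 6 members called in resistant 786-O, 8 in resistant A498 against A498 and 5 to 6 for the difference of the changes. Of all genes, 62.4% to 73.6%, 67.1% to 67.9% and 63.5% to 72.8% were called in these fits. The replicate block kept the counts at 6, 8 and 5, and with the GC and length trend also removed the difference had 8, as without the block. With the block 67.7%, 72.2% and 67.7% of all genes were called. With that trend removed the difference was called for 66.9% with the block and 67.6% without it. Scaling by library size alone moved the median log2 fold change of all genes in resistant 786-O from 0.033 to 0.176. The study's unadjusted test of raw counts called 1 member in resistant 786-O and 3 in resistant A498, and requiring an absolute log2 fold change over 1 in the main fit left 0 and 0. The shares of all genes under these rules were not computed. Removing the GC and length trend called 1 other AMPK kinase in resistant 786-O, as did library size (1), and 3 lysosomal regulators. Of all genes, 67.9% were called there with the trend removed and 68.7% with library size alone. In resistant 786-O PRKAG2 changed sign to 0.12 (library size), 0.04 (at least 10 counts), 0.01 (line fitted alone) and 0.17 (study's test), and ran from -0.04 to 0.03 with 1 library left out. STK11 there changed to 0.09, 0.01 and 0.14 under library size, at least 10 counts and the study's test, and ran from -0.10 to 0.04 with 1 library left out (0.04 without resistant 786-O replicate 2). With 786-O as reference resistant A498 gave -0.39 for PRKAB1, -0.42 for PRKAG1 and -0.11 for STK11. Without the GC and length trend the difference was -0.45 for PRKAA2 and -0.25 for PRKAB2, with or without the block, PRKAB2 was 0.04 in A498 against 786-O, and the PRKAG2 to PRKAG1 ratio -0.03 in resistant A498 against 786-O. The PRKAA2 difference ran from -0.002 (without 786-O replicate 3) to 0.21 with 1 library left out, and STK11 was 0.04 in resistant A498 against 786-O with library size. The causes were not tested. PRKAA2 kept its rise and CAMKK2 its fall, both called, in both comparisons with a labelled parent under the other edgeR and DESeq2 settings, in which no fold change was required.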
